A study of Rattus norvegicus with 6 samples.

Results

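The miRNAs described here are rno-miR-126a-3p, rno-miR-126a-5p, rno-miR-221-3p and rno-miR-222-3p, 4 of the 758 rat miRNAs on the array, chosen by their names in the array design. The tissue was myocardium of the left ventricle from male Wistar rats given a high-fat diet (3 samples) or normal chow (3 samples) for 20 weeks, with 1 single-colour Agilent array per sample. The labels name no genotype, drug or age and do not say whether each of the 3 samples on a diet was a different rat, so the p-values measure only how these samples spread, and part of that spread may be technical. On every one of the 6 arrays all 4 miRNAs were well above background, as were all 7 of their probes, printed in 64 spots per array.

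miRNAs are short RNAs that repress messenger RNAs, which they recognise mainly through the seed, bases 2 to 8. miR-126 is carried in an intron of Egfl7, a gene of endothelial cells, and is among the most enriched miRNAs of blood vessel lining, where it keeps signalling through vascular endothelial growth factor going by lowering the inhibitors Spred1 and Pik3r2 (known from mice and zebrafish). Its 3p strand is the one usually counted as the guide, while the 5p strand is also loaded and is known in mice to favour endothelial proliferation by lowering Dlk1. miR-221 and miR-222 are made from neighbouring genes and lower Kit, the stem cell factor receptor, and the cell cycle inhibitor Cdkn1b. In human endothelial cells they are known to restrain migration and tube formation, and in vascular smooth muscle to favour growth.

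The mature sequences are shown, 5′ to 3′ with the seed in capitals, because the seeds separate the 4 miRNAs into 3 groups. They are from RefSeq (GRCr8), where all 4 were found.
rno-miR-126a-3p: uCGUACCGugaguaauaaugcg
rno-miR-126a-5p: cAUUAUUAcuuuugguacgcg
rno-miR-221-3p: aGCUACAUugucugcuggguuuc
rno-miR-222-3p: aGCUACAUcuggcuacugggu
miR-221-3p and miR-222-3p have the same seed, and among the 693 mature rat miRNAs of that table no other has it. Counted from the 5′ end, their first 8 bases are identical, and 11 of the 21 positions they have in common are. The seeds of miR-126a-3p and miR-126a-5p were each found in 1 mature miRNA, their own. On chromosome X, miR-222-3p lies at chrX:6022682-6022702 and miR-221-3p at chrX:6023246-6023268, both on the plus strand, with 458 bases between their hairpins. miR-126a-5p (chr3:29813182-29813202) and miR-126a-3p (chr3:29813219-29813240) come from 1 hairpin on the plus strand, inside the span of Egfl7. RefSeq lists that hairpin under the symbol Mir126b, and miR-126b under Mir126a, a separate entry that overlaps it. The minus strand of the same place gives miR-126b, and 17 bases of miR-126a-5p are complementary to it.

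Between pairs of the 6 arrays, correlations over the scaled log2 signals of the 425 miRNAs tested lay between 0.990 and 0.996. The unscaled 75th percentile of signal averaged 502 ± 77.1 intensity units over the high-fat arrays and 387 ± 33.9 over the chow arrays, a ratio of 1.30 (SD of 3 arrays per diet). By a 2-sided exact permutation test p was 0.2, and 3 against 3 arrays cannot give less than 0.1. The stringency spike-in ratio, which the scanner software gives to rate the hybridisation, averaged 1.49 ± 0.485 over the high-fat arrays and 3.81 ± 0.376 over the chow arrays (SD of 3 arrays per diet, exact permutation p = 0.1). Per the file headers, all 6 arrays came from 1 scan and lay in 2 rows, with the 3 high-fat arrays and chow replicate 1 in row 1 and chow replicates 2 and 3 in row 2. All 7 heart muscle miRNAs were well above background on each of the 6 arrays, the liver miRNA miR-122-5p on 0 of them. The brain miRNA miR-124-3p was well above background on all 3 high-fat and all 3 chow arrays, at mean scaled log2 signals of -3.83 and -3.47. The summed scaled signal of the heart muscle miRNAs was 325 to 413 on high-fat and 441 to 467 on chow arrays. That of 4 red blood cell miRNAs was 15.3 to 21.5 on high-fat and 10.6 to 12.8 on chow arrays. Bright miRNAs weigh most in such sums. Singly, the log2 differences ranged from -0.97 to -0.04 for the 7 heart muscle miRNAs and from 0.01 to 1.30 for the 4 red blood cell miRNAs. By limma 0 of either list had an adjusted p under 0.05, beside 0.471% of the 425 miRNAs tested. An unadjusted p under 0.05 was found for 4 of the 7 heart muscle and 2 of the 4 red blood cell miRNAs. Over all miRNAs tested this share was 11.8%. For 4 smooth muscle miRNAs the sums were 52.7 to 58.3 on high-fat and 52.3 to 55.8 on chow arrays, for 4 fibroblast miRNAs 20.7 to 22.1 and 19.5 to 21.1, and for 5 immune cell miRNAs 14.98 to 16.4 and 15.3 to 16.5. Whether these shifts, the brightness or the hybridisation value contributed to the members' values was not tested. The hybridisation value ran from 0.974 to 1.94 on high-fat and from 3.44 to 4.19 on chow arrays. Since the diets did not overlap in it, its part cannot be told apart from that of diet.

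The comparison asked whether miRNA levels in the myocardium differ with diet-induced obesity. None of the 4 miRNAs passed the test (0 of 4 by limma at an adjusted p under 0.05, and 0 of 4 at an unadjusted p under 0.05), where 0.471% of the 425 miRNAs tested were called and 11.8% had an unadjusted p under 0.05. Both strands of miR-126a were slightly lower on the high-fat diet, and miR-221-3p and miR-222-3p were slightly higher, and all 4 of the 95% intervals included 0. For all 4 the arrays of the diets overlapped, whereas they did not overlap for 17.2% of the miRNAs tested. In whole myocardium, fewer endothelial cells and less of a miRNA per cell cannot be told apart.

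miR-126a-3p, the main endothelial strand, gave the brightest signal of the 4 and ranked between place 8 and place 11 of the 758 miRNAs on every array. That rank describes brightness, since probes differ in affinity, and is no copy number. Its brighter probe read 27069, 30446 and 33300 intensity units on high-fat replicates 1, 2 and 3, against 23185, 27419 and 23456 on chow replicates 1, 2 and 3. Before scaling, high-fat replicates 2 and 3 were thus above every chow array, and high-fat replicate 1 lay between the chow arrays. After each array was divided by its own 75th percentile, the log2 signals were 6.03, 5.84 and 5.89 on the high-fat arrays and 6.01, 6.01 and 5.96 on the chow arrays. High-fat replicates 2 and 3 were then below every chow array and high-fat replicate 1 above every one. The means were 5.92 ± 0.10 on the high-fat diet and 5.996 ± 0.03 on chow (SD, n = 3 each), a log2 difference of -0.08 ± 0.10 SE (limma adjusted p = 0.786). As a fold this was 0.949, with a 95% interval of 0.812 to 1.11. The dimmer probe of miR-126a-3p differed by -0.04 ± 0.10 SE (limma adjusted p = 0.910 over 865 probes, of which 0.231% were called). Without scaling the log2 difference was 0.29 (limma adjusted p = 0.323), and the median over all miRNAs was then 0.32, beside -0.04 with scaling.

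**Figure D1:**
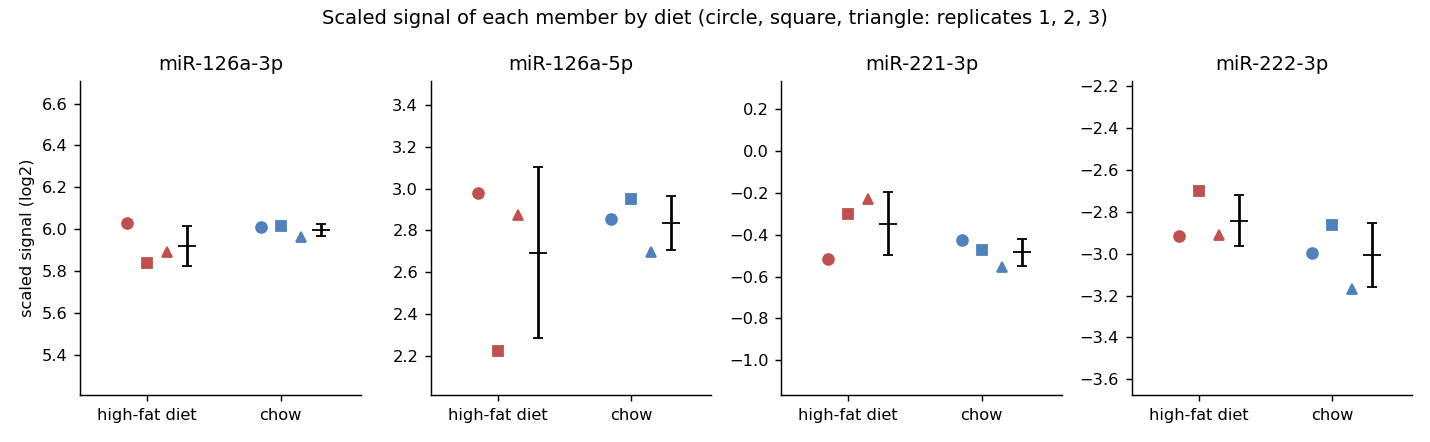
Scaled signal (log2 of the brightest probe's signal over the array's 75th percentile) of the 4 miRNAs on each array, high-fat diet in red and chow in blue, with circles, squares and triangles for replicates 1, 2 and 3 and the mean ± SD of 3 arrays in black. Every vertical axis spans the same range of log2 signal. High-fat replicate 2 of miR-126a-5p, at 2.22, lies below the other arrays, and the diets overlap in every panel.

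miR-126a-5p, the partner strand, has 1 probe with 16 spots and varied more than the other members. The probe read 3275, 2485 and 4110 units on high-fat replicates 1 to 3, and 2598, 3285 and 2438 on chow replicates 1 to 3. Scaled, the log2 signals were 2.98, 2.22 and 2.87 on the high-fat arrays, against 2.85, 2.95 and 2.70 on the chow arrays. High-fat replicate 2 was the lowest array by 0.47 on the log2 scale, and the other 5 arrays lay between 2.70 and 2.98. That reading came from 16 spots with 0 outlier flags, which ranged from 2165 to 3021 units, while the spots ranged from 2779 to 4065 on high-fat replicate 1 and from 3397 to 5252 on high-fat replicate 3. On chow the spots used ranged from 2196 to 3357, from 3086 to 3720 and from 2231 to 2567 on replicates 1, 2 and 3. The means were 2.69 ± 0.41 on the high-fat diet and 2.83 ± 0.13 on chow (SD, n = 3 each), a log2 difference of -0.14 ± 0.20 SE (limma adjusted p = 0.812). This was 0.907-fold with a 95% interval of 0.655 to 1.25, the widest of the 4. Without high-fat replicate 2 the difference was 0.093 (limma adjusted p = 0.854), so its direction rests on that array.

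miR-221-3p read 290, 432 and 479 units on high-fat replicates 1 to 3 and 268, 306 and 256 on chow replicates 1 to 3 with its brighter probe. On the scaled log2 axis this was -0.52, -0.30 and -0.23 on high-fat arrays, against -0.42, -0.47 and -0.55 on chow arrays. High-fat replicates 2 and 3 were above every chow array, and high-fat replicate 1 was below chow replicates 1 and 2. The difference of the means, -0.35 ± 0.15 on the high-fat diet and -0.48 ± 0.07 on chow (SD, n = 3 each), was 0.14 ± 0.11 SE on the log2 scale, or 1.099-fold with a 95% interval of 0.919 to 1.31 (limma adjusted p = 0.659). The other probe gave 0.15 ± 0.11 SE (limma adjusted p = 0.655). Both probes thus gave a difference of the same sign and nearly the same size, and neither was called. Within array row 1 the log2 difference was 0.08, set against chow replicate 1 alone, so only its size is given.

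miR-222-3p was the dimmest member, at brightness places 232 to 254, yet all 8 spots of each of its probes were well above background on every array. The brighter probe read 55.1, 81.7 and 74.6 units on high-fat replicates 1 to 3 and 45.1, 58.4 and 41.9 on chow replicates 1 to 3, over a local background of 11.3 to 15.7 units. The scaled log2 signals were -2.91, -2.70 and -2.91 on high-fat arrays and -2.99, -2.86 and -3.17 on chow arrays. High-fat replicate 2 was the highest array, and chow replicate 2 lay above high-fat replicates 1 and 3. From means of -2.84 ± 0.12 on the high-fat diet and -3.01 ± 0.15 on chow (SD, n = 3 each), the log2 difference was 0.17 ± 0.12 SE, or 1.12-fold with a 95% interval of 0.926 to 1.36 (limma adjusted p = 0.631). The dimmer probe gave 0.15 ± 0.12 SE (limma adjusted p = 0.674). Spots of the brighter probe varied by 7.71% to 23.3% (coefficient of variation within an array), against 2.41% to 5.97% for the brighter probe of miR-221-3p. With another background correction, normexp with the 75th percentile, the log2 difference of miR-222-3p was -0.043 (limma adjusted p = 0.746), where the median of all miRNAs was -0.14.

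**Figure D2:**
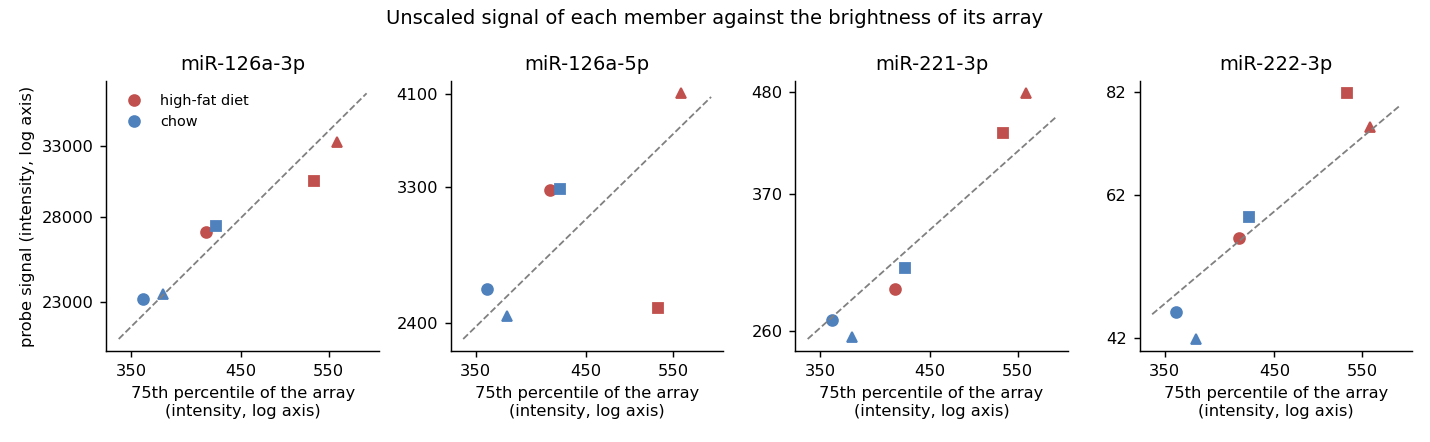
Unscaled signal of each member's brightest probe against the 75th percentile of signal on the same array, both as intensity on log axes, with high-fat arrays in red, chow arrays in blue and the replicate shapes as above. The dashed line marks a constant ratio to the 75th percentile, fitted to the 6 arrays of each panel. Points above the line have a higher scaled signal, and high-fat replicate 2 of miR-126a-5p (2485 units) lies farthest from its line.

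Without scaling, the means of all 4 were higher on high-fat arrays, by 1.23 times for miR-126a-3p, 1.19 for miR-126a-5p and 1.45 for both miR-221-3p and miR-222-3p, beside the 1.30 times of the arrays' 75th percentile. The 2 miR-126a strands thus lay below the arrays' brightness ratio and the pair with the shared seed above it. Which sign the miR-126a strands take depends on the scaling. miR-221-3p was higher in all 25 alternatives, 2 of which rest on chow replicate 1 alone, and called in 0 of them. All alternatives reuse the same arrays, so their number is no repeated evidence for its sign. Some, among them no filter, a higher floor, a variance trend and the replicate block, left its log2 difference of 0.14 unchanged. Its values ranged from 0.044 with the scanner software's total signal to 0.51 without scaling.

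**Figure D3:**
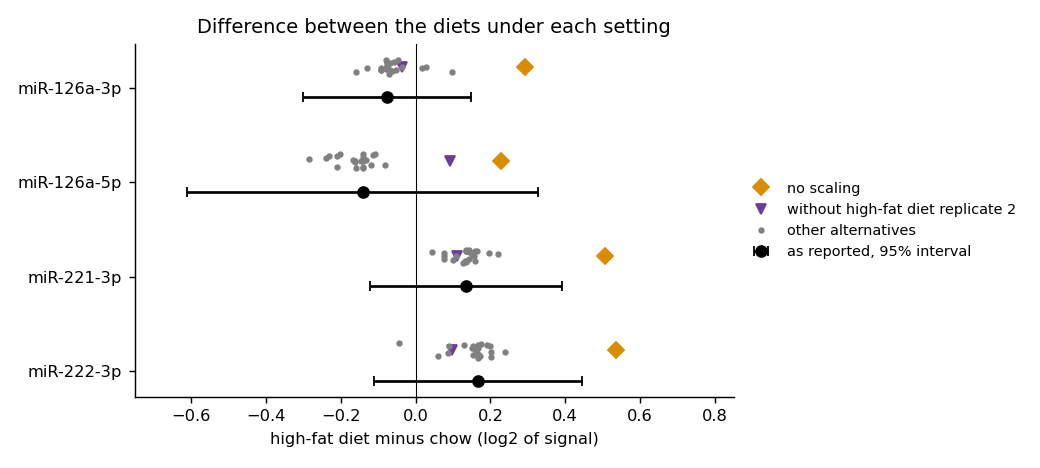
Log2 difference of scaled signal, high-fat diet minus chow, for each miRNA. Black points give the reported value with its 95% interval from limma, grey points the other alternatives, orange diamonds the values without scaling and purple triangles those without high-fat replicate 2. All 4 reported intervals include 0, from -0.61 to 0.33 for miR-126a-5p and from -0.30 to 0.15 for miR-126a-3p.

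The ratio of the miR-126a strands within an array does not depend on the scaling between arrays by a single factor. The 3p signal was 8.27, 12.3 and 8.10 times the 5p signal on high-fat replicates 1 to 3, and 8.92, 8.35 and 9.62 times on chow replicates 1 to 3. These sizes also hold the affinities of 2 different probes, so only their difference between arrays bears on the diets. High-fat replicate 2 had the highest ratio, and high-fat replicates 1 and 3 had lower ones than all 3 chow arrays. The mean log2 ratio was 3.23 ± 0.34 on the high-fat diet, against 3.16 ± 0.10 on chow (SD of 3 arrays per diet, exact permutation p = 1). In a fit over the 102 hairpins with both strands tested, of which 0% were called (9 at an unadjusted p under 0.05), the log2 difference was 0.07 ± 0.19 SE with a 95% interval of -0.37 to 0.51 (limma adjusted p = 0.939). Larger differences between the diets, in either direction, were measured for 77 of the 102 hairpins. The SD of the miR-126a ratio over the 6 arrays was 0.23 on the log2 scale, the same as the median over hairpins, 0.23. Without high-fat replicate 2 the difference was -0.13 (limma adjusted p = 0.858).

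**Figure D4:**
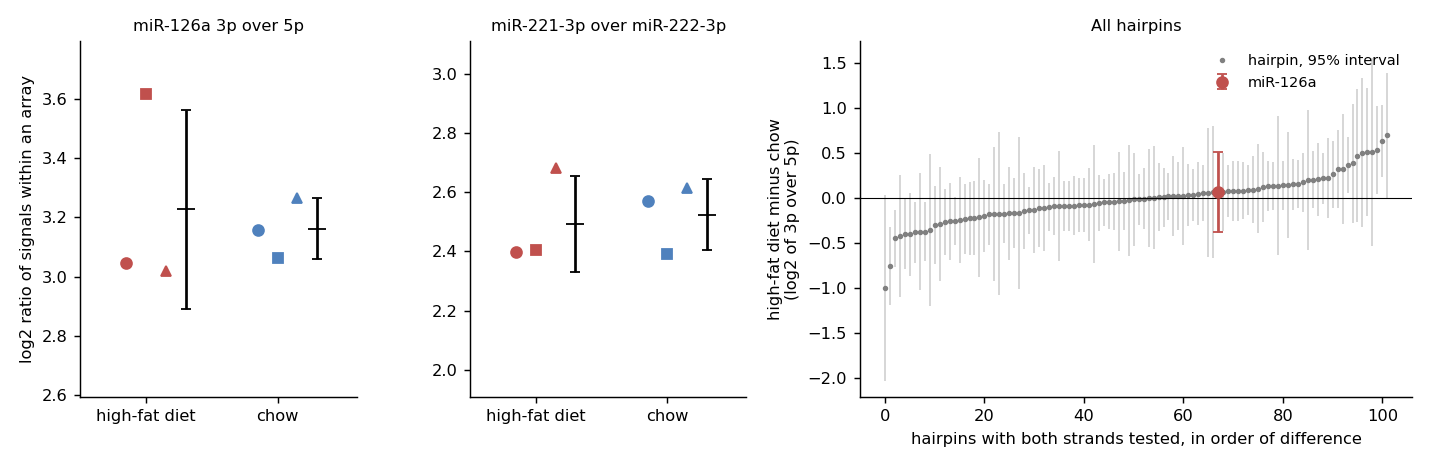
Left and middle, log2 ratio of signals within each array for miR-126a 3p over 5p and for miR-221-3p over miR-222-3p, with high-fat arrays in red, chow arrays in blue and the mean ± SD of 3 arrays in black. Right, difference between the diets in the log2 ratio of 3p over 5p for 102 hairpins in order, each with its 95% interval from limma, with miR-126a in red at 0.07.

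The ratio of the cluster mates miR-221-3p and miR-222-3p was 5.27, 5.29 and 6.41 on high-fat replicates 1 to 3, against 5.93, 5.24 and 6.12 on chow replicates 1 to 3. The diets overlapped, and the highest and the lowest ratio came from high-fat replicate 3 and chow replicate 2. On the log2 scale the ratio was 2.49 ± 0.16 on the high-fat diet and 2.52 ± 0.12 on chow, a difference of -0.03 (SD of 3 arrays per diet, exact permutation p = 1). Adjusted over the 2 ratios compared, both p-values were 1.

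The partner strands were not seen. miR-221-5p, miR-222-5p and the antisense miR-126b were well above background on 0 of 6 arrays, with all their spots below that limit on each, and were not tested.

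Over the 6 arrays, the 2 strands of miR-126a varied together most closely among the 6 pairs of members, with Pearson's r = 0.81 (exact permutation p = 0.0431, adjusted p = 0.258 over 6 pairs) and Spearman's rho = 0.83 (exact permutation p = 0.0583, adjusted p = 0.350). Without the 2 arrays farthest from the median of miR-126a-3p, r was 0.95. For miR-221-3p and miR-222-3p r was 0.60 (exact permutation p = 0.232, adjusted p = 0.440) and rho 0.60 (exact permutation p = 0.242, adjusted p = 0.483), and r was 0.51 without the 2 farthest arrays. miR-126a-3p and miR-221-3p ran in opposite directions, with r = -0.77 (exact permutation p = 0.0944, adjusted p = 0.283) and rho = -0.60 (exact permutation p = 0.242, adjusted p = 0.483), but r was 0.58 without the 2 farthest arrays, so that relation rests on them. The other 3 pairs had r of -0.48 (miR-126a-3p and miR-222-3p), -0.37 (miR-126a-5p and miR-221-3p) and -0.43 (miR-126a-5p and miR-222-3p), which became 0.91, -0.68 and 0.67 without the 2 farthest arrays. With 4 arrays left, r thus moved widely, and a value near 0.95 was not particular to the 2 strands of miR-126a. With each array set against the mean of its own diet, r was 0.81 for the 2 strands, 0.38 for miR-221-3p and miR-222-3p, -0.66 for miR-126a-3p and miR-221-3p, and from -0.35 to -0.23 for the other 3 pairs. Over the 36 arrangements of arrays within diets, the exact permutation p was 0.306 for the 2 strands and 0.472 to 0.806 for the others (adjusted p = 0.806 for each of the 6). No pair passed the adjustment in either form. All arrays share their scaling factor between miRNAs.

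Among the 421 other miRNAs tested, those with the most similar pattern over the 6 arrays were picked by Pearson's r and so carry no p. For miR-126a-3p they were miR-509-3p (r = 0.97, rho = 0.94), miR-1b (0.97, 0.83) and the muscle miRNA miR-1-3p (0.96, 0.83). For miR-126a-5p they were miR-201-5p (r = 0.995, rho = 1), miR-190a-5p (0.99, 1) and miR-450a-3p (0.96, 0.89), and for miR-221-3p miR-1188-5p (0.97, 0.94), miR-18a-5p (0.96, 0.94) and miR-206-3p (0.95, 0.94). The matches of miR-126a-5p were, like it, lowest on high-fat replicate 2, at scaled log2 signals of -3.79, -3.15 and -4.96. That array weighs heavily in their r, and r without it was not computed. miR-222-3p had the weakest matches, miR-497-5p (r = 0.92, rho = 0.60), miR-193a-5p (0.91, 0.94) and miR-24-2-5p (0.89, 0.83).

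Other miRNAs with known roles in endothelial cells or vessel growth showed no calls either. Of 39 names on that list, 35 were on the array and 29 were tested. Of these 0 rose and 0 fell (limma, adjusted over all 425), and 2 had an unadjusted p under 0.05. Over all 425 miRNAs 0.471% were called and 11.8% had an unadjusted p under 0.05, so few or no calls were likely in a list of this size. Higher values were measured for 13 and lower ones for 16, with a median log2 difference of -0.01, beside -0.04 for all miRNAs tested. The smallest p-values belonged to miR-34a-5p, a p53 target that rises in ageing endothelium, at 0.63 ± 0.15 SE (limma adjusted p = 0.192) and to miR-146a-5p, which restrains inflammatory signalling, at 0.28 ± 0.11 SE (adjusted p = 0.409). miR-218a-5p, which lowers Robo receptors of vessel guidance, differed by 0.19 ± 0.10 SE (limma adjusted p = 0.445) and miR-503-5p, known to restrain endothelial growth in diabetic muscle, by 0.24 ± 0.13 SE (adjusted p = 0.478). The 29 values ranged from -0.19 to 0.63, and those of the 4 members, from -0.14 to 0.17, lay inside that range.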

How the data were processed

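Total RNA labelled with Cy3 was hybridised to 1 array per sample, per the labels' protocols. Per the file headers, and per the tools the submitters' processing notes name, Agilent Feature Extraction 11.0.1.1 made the deposited spot intensity values, background-subtracted and spatially detrended within each array and not scaled between arrays. The authors' deposited value table holds log2 values whose 6 columns share the median (3.54), upper quartile and maximum, while their lower quartiles differ. Its scale and between-array normalisation were inferred from the values, its centring is not stated, and it served as an alternative.

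Spots with outlier flags (9.07% to 9.42% per array) and 715 control spots were left out, and spots of a probe were averaged (1806 probes). Saturated spots numbered 0. A probe was well above background on an array when at least 50% of its spots were. Each array was divided by its 75th percentile taken over 757 probes (those well above background on every one of the 6 arrays), a floor (1st percentile of detected probes, log2 of -5.82) was set and log2 taken. The brightest probe stood for a miRNA, and miRNAs well above background on at least 3 arrays were tested (425) with limma 3.58.1 in R 4.3.3, without covariates, with Benjamini-Hochberg adjustment and a threshold of 0.05. Differences are high-fat diet minus chow. Strand ratios were fitted the same way, and single values tested with exact permutations over 20 assignments. The fits were tested on simulated data with changes larger than the members' differences, which does not show how often changes as small as theirs would be called. The members, lists and tests were chosen with earlier results of these data known. Named are the members, the 4 smallest p-values of the endothelial list and the 3 nearest patterns per member. Array row was planned as slide, but the headers give 1 scan.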

Additional observations from a re-analysis of the deposited data

How the results depend on the processing

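The 4 members were called in 0 of their 24 or 25 alternatives, with adjusted p-values from 0.207 upwards, but those with array row rest on 1 chow array, so that they could hardly have given a call. miR-126a-3p changed sign with normexp and quantile normalisation (0.029), quantile normalisation (0.017), the deposited value table (0.10) and no scaling (0.29). miR-126a-5p did so with no scaling (0.23), and it ranged from -0.29 to 0.093 when each array was left out in turn. miR-222-3p was -0.043 with normexp and the 75th percentile, which also moved the diet difference in the log2 ratio of miR-221-3p to miR-222-3p to 0.15. The diet difference in the log2 strand ratio of miR-126a ranged from -0.13 to 0.17 when arrays were left out. It was 0.23 with normexp and quantile normalisation, 0.23 with quantile normalisation and 0.26 with the deposited value table. In these the limma adjusted p was 0.554, 0.695 and 0.709. With array row as a block the differences were -0.09, -0.16, 0.08 and 0.15 for miR-126a-3p, miR-126a-5p, miR-221-3p and miR-222-3p, and the same within row 1, since both set the high-fat arrays against chow replicate 1 alone, while row 2 held no high-fat array. The number of miRNAs called, 2 of 425, was 0 with quantile normalisation, no filter, a floor 4 times higher, array row as a block, within row 1 and in the deposited value table, 4 with no scaling or a variance trend, 8 with normexp and the 75th percentile, 3 at an adjusted p under 0.1 and 0 to 3 when arrays were left out. Deviations of same-numbered samples correlated at 0.22, -0.01 and 0.05, and those of differently numbered samples at -0.20 to 0.13. With 3 arrays per diet such values cannot settle whether samples were paired, and the numbers were not taken as pairs. With the replicate block the members' differences were unchanged in size and 0 of 4 were called (limma adjusted p from 0.693 to 0.865), with 3 miRNAs called in all. The number of arrays limits the precision, and the 95% intervals do not exclude changes of up to 0.655-fold for miR-126a-5p or 1.36-fold for miR-222-3p.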

Other observations

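The low scaled signal of miR-126a-5p on high-fat replicate 2 was looked at further after it was seen. Before scaling it was not the lowest, at 2485 units against 2438 on chow replicate 3. The 75th percentiles of these arrays were 532 and 376. On high-fat replicate 2, 5 of the 425 miRNAs tested lay at least 0.47 on the scaled log2 axis below all other arrays, against 0 to 3 on each of the others. The cut-off of 0.47 was the gap of miR-126a-5p itself on that array, so miR-126a-5p was counted there by construction. The 5 were miR-126a-5p, both strands of miR-190a (gaps of 0.73 for miR-190a-5p and 0.99 for miR-190a-3p), miR-26b-5p (0.76) and miR-208b-3p (1.09). All were well above background on all 6 arrays. In RefSeq the share of G and C was 38.1% in miR-126a-5p, 22.7% in miR-190a-5p and 33.3% in both miR-26b-5p and miR-208b-3p. No sequence was found there for miR-190a-3p, so its share is not known here. The median was 47.8% over the 388 tested miRNAs with a sequence. For the 63 miRNAs with a share no higher than that of miR-126a-5p, the median departure of high-fat replicate 2 from the mean of the other arrays was -0.17, against -0.04 for all 388. On the other 5 arrays the median for these 63 ranged from -0.01 to 0.11. The 63 include miR-126a-5p, miR-190a-5p, miR-26b-5p and miR-208b-3p, which were picked for low scaled signals on this array, so the -0.17 rests partly on them. Across all 388 miRNAs, however, the correlation of the share of G and C with the departure was 0.04 on high-fat replicate 2, the closest to 0 of the 6 arrays, and -0.28 to 0.19 on the others (across miRNAs, which are not independent replicates). High-fat replicate 2 also had the lowest stringency spike-in ratio, 0.974, against 1.94 and 1.55 on high-fat replicates 1 and 3 and 3.44 to 4.19 on the chow arrays. The part of base composition, hybridisation or the brightness of the array in the low scaled signal was not tested.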
